A study of Mus musculus with 6 samples.

Results

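The STAT transcription factors and the Janus kinases that activate them were measured in mouse HoxB8 neutrophil progenitors, immature cells named for the homeobox factor Hoxb8. Of the 9 family genes chosen by symbol (Stat2, Stat3, Stat4, Stat5a, Stat5b, Stat6, Jak2, Jak3 and Tyk2), 8 were found, each with 1 probe set, among 19505 named genes. Jak3 was not analysed here. One group of 3 arrays came from progenitors that expressed the K313 form of C/EBPα (K313), a change associated with acute myeloid leukaemia, and the other group of 3 arrays from progenitors that expressed wild-type C/EBPα (WT). All cells had spent 1 day in differentiation medium with stem cell factor, and the labels state neither further alleles nor how many clones each group held. They do not say whether replicates were separate cultures. The p-values set each group difference against the scatter of these samples only, and that scatter may be technical.

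A cytokine that binds its receptor brings together the Janus kinases attached to the receptor tails. The kinases phosphorylate the receptor and then the STAT proteins docked there, which pair through their SH2 domains, enter the nucleus and bind DNA. In myeloid cells Jak2 serves the receptors for interleukin 3, interleukin 5, GM-CSF and erythropoietin, Stat3 and Stat5 act downstream of G-CSF and GM-CSF, and Stat2 carries the type I interferon signal. Stat4 is best known for the interleukin 12 response of T and NK cells, and Stat6 for the responses to interleukin 4 and interleukin 13. This signalling is controlled by phosphorylation, which a transcript level does not show.

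Values are log2 expression, so a difference of 1 is a doubling, and differences are K313 minus WT with the standard error (SE) of the fit. Array medians lay between 5.01 and 5.13, and a mean level of 5 or less is called near the low end. Of 22206 probe sets, 1720 (7.75%) passed an adjusted p of 0.05, 838 higher (3.77%) and 882 lower (3.97%) in K313. Replicate arrays correlated at 0.9952 to 0.9963 in K313 and 0.9941 to 0.9953 in WT (Pearson's r over probe sets, a description). WT replicate 3 was the WT array nearest to K313, at 0.987 to 0.9891. The groups also differed in Hoxb8 itself (-4.64 ± 0.25, SE) and in the Y-linked genes Eif2s3y, Uty and Kdm5d (4.63 to 7.88 higher in K313). In these Y-linked genes WT replicate 3 was the highest WT array, at 7.03, 6.81 and 4.31. The other WT arrays read 2.93 to 3.78, and the source of that gap was not tested. The group differences in these genes and the form of C/EBPα cannot be told apart as sources of any result here. All 12 neutrophil precursor markers were above the low end in at least 1 group, as were 9 of 12 basophil and mast cell markers and 5 of 7 eosinophil markers.

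The promoters of Stat4, the member that passed the test, and of Jak2 and Stat2, the members with the next largest differences, are given as the 250 bases before the start site in RefSeq build GRCm38.p6, all on the plus strand, 5′ to 3′. The windows are chr1:51986898-51987147 and chr1:52007990-52008239 for the start sites of Stat4, chr19:29251553-29251802 for Jak2 and chr10:128270248-128270497 for Stat2. Capitals mark matches to the motifs described after the sequences.
Stat4, upstream start: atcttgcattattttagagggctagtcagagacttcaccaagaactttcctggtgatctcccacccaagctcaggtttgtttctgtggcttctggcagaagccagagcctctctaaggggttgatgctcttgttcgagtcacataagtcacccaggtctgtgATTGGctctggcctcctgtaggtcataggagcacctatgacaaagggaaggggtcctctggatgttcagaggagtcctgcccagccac
Stat4, downstream start: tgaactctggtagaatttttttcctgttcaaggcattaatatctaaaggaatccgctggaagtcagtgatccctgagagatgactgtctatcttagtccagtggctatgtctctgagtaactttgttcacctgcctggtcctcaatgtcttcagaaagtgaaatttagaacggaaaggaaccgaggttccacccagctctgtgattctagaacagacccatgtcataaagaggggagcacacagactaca
Jak2: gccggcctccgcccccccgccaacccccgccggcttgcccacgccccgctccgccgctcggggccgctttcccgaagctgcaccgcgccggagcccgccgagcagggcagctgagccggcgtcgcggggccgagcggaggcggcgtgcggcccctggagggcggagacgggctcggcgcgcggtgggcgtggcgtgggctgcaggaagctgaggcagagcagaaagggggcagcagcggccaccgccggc
Stat2: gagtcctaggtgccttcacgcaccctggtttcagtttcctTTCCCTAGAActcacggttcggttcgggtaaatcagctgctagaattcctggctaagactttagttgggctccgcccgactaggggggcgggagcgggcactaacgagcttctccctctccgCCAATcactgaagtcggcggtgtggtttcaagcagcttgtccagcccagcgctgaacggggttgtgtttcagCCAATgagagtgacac
Patterns of letters chosen after the expression values were seen were searched on both strands in the 11 promoters of the 8 genes, from 250 bases before to 50 after the start. TTCNNNGAA, the core bound by most STAT dimers, matched in 0 of 11, and in 8.3% of all 32851 promoters. The same pattern with 1 more N between TTC and GAA, which Stat6 accepts, matched in 1 of 11, the Stat2 promoter, against 6.95% of all. TTGCNNAA, a C/EBP-type pattern, matched in 0 of 11 (10.8% of all). The shorter C/EBP-type pattern GCAAT matched in 1 of 11, at a start of Stat5b (26.4% of all). CCAAT was found in 4 of 11, in Stat2, Stat3, Stat4 and Tyk2, against 37.4% of all. None of these matches overlapped another in the 11 promoters. A match is a description of the sequence, not a binding site, no match says only that these letters are not in the window, and the labels do not state which start these cells use.

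Stat4 was the member that differed most between the groups. It rose 2.07-fold in K313, with the 3 K313 arrays above the 3 WT arrays. Jak2 was lower in all K313 arrays but missed the threshold, and Stat2, Stat3, Stat5a, Stat5b, Stat6 and Tyk2 had overlapping groups. With limma 1 of 8 members was called higher and 0 lower, or 12.5%, against 7.75% of all probe sets and 11.4% of the 7454 probe sets at least as bright as the dimmest member. At an unadjusted p under 0.05 there was 1 higher and 1 lower. The groups did not overlap in 2 of 8 members, against 21.9% of all probe sets. Both shares rest on 1 or 2 genes and are near the background. The median difference was -0.08 over the members and 0.02 over all probe sets, and the median size of a difference was 0.175 over the members and 0.177 over all probe sets.

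**Figure D1:**
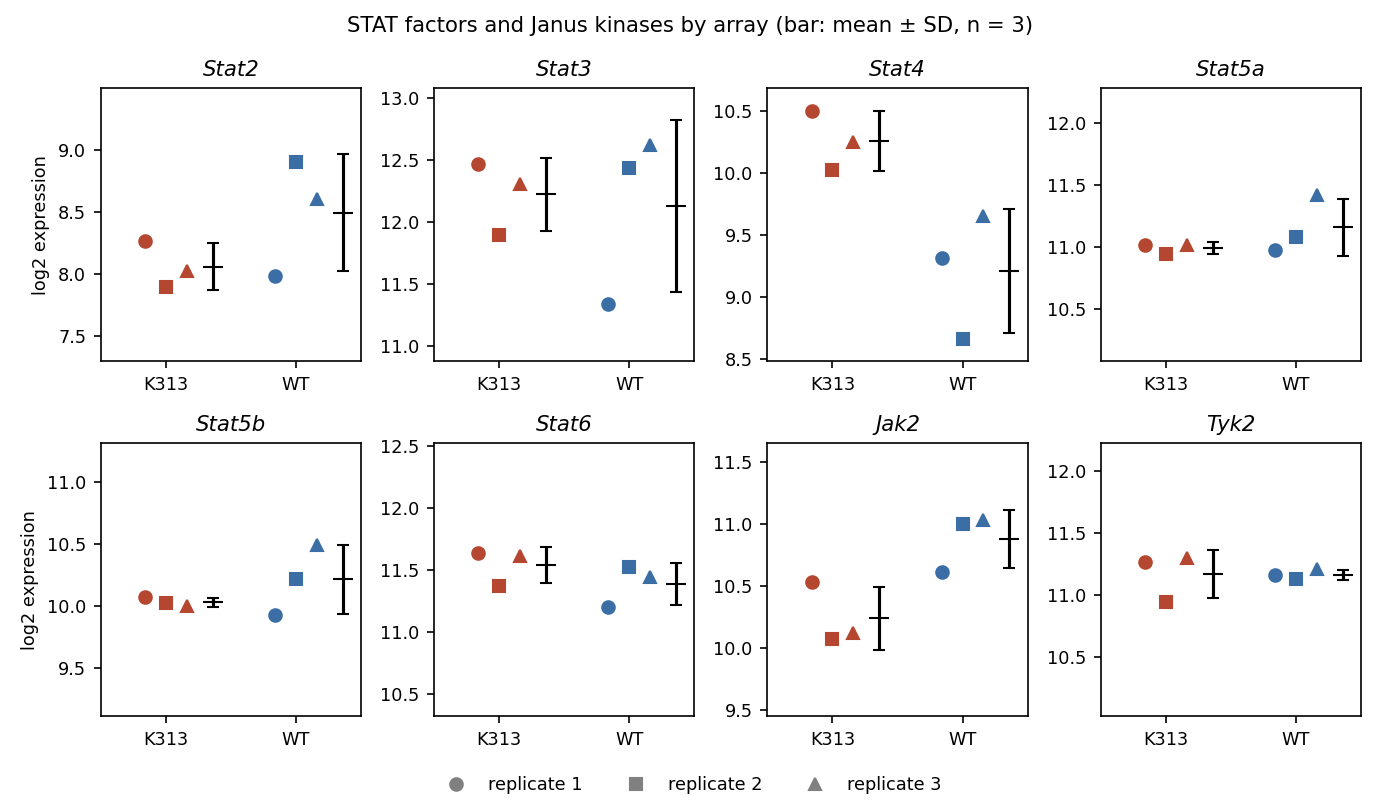
Log2 expression (vertical axis, a span of 2.2 in every panel) of the 8 measured STAT and JAK genes in the 3 K313 and the 3 WT arrays, with the mean and SD of each group. Stat4 is higher and Jak2 lower in each K313 array than in each WT array, and the groups overlap in the other panels.

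Stat4 read 10.50, 10.02 and 10.25 in the K313 arrays, against 9.31, 8.66 and 9.65 in the WT arrays. The lowest K313 array lay above the highest WT array, and WT replicate 2 was the lowest of all. The means were 10.26 ± 0.24 in K313 and 9.21 ± 0.50 in WT (SD, n = 3 each), a difference of 1.05 ± 0.24 (SE). Its 95% interval before adjustment ran between 0.52 and 1.58, and the limma adjusted p was 0.0212. The call was lost when any of 3 arrays was left out. Without WT replicate 2 the difference was 0.78 (limma adjusted p = 0.0504), without K313 replicate 1 it was 0.93 (0.0875) and without K313 replicate 3 it was 1.05 (0.0748). Without WT replicate 3 it was 1.27 (0.00957), and with the ordinary variance of the gene alone the adjusted p was 0.264. The direction held in all 14 alternatives, and over these the adjusted p ranged between 0.00957 and 0.264.

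**Figure D2:**
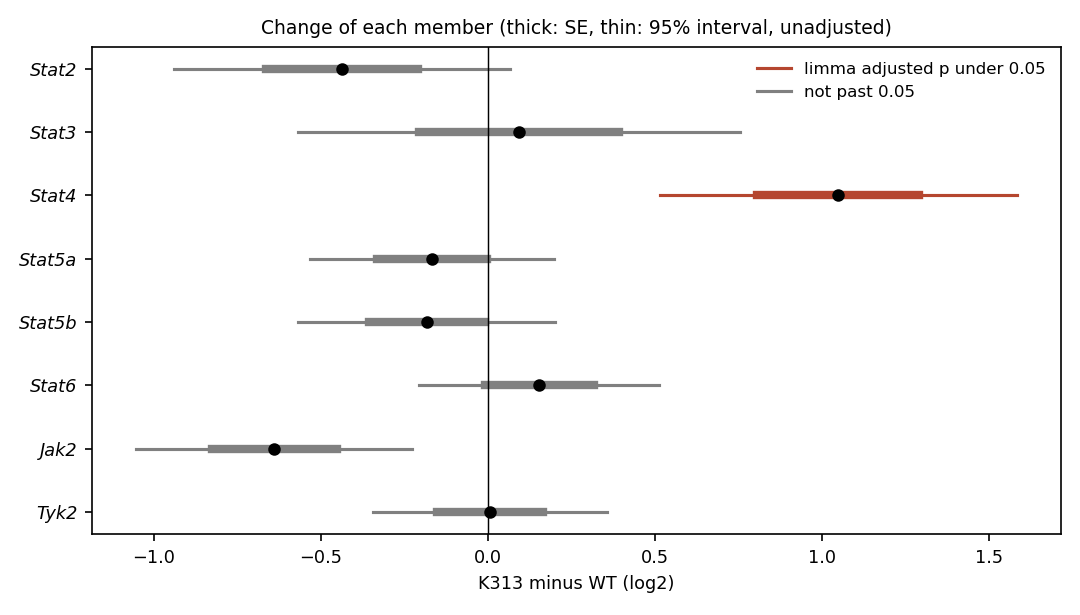
Difference K313 minus WT (log2, horizontal axis) of each member, with the SE as the thick bar and the unadjusted 95% interval as the thin bar. Stat4 at 1.05 is the member past an adjusted p of 0.05, and Jak2 at -0.64 has an interval that leaves out 0 before adjustment but not an adjusted p past the threshold.

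The genes whose profile over the 6 arrays was closest to that of Stat4, by the root mean square difference of values centred on each gene's mean, were Nqo2, Mtus1 and Klf7. Nqo2, a quinone reductase, was the nearest, at 0.10 log2 units, with 13.11, 12.82 and 12.95 in the K313 arrays against 12.15, 11.30 and 12.23 in the WT arrays. Mtus1, a microtubule-associated protein, also lay at 0.10 and read 12.21, 11.69 and 11.95 in K313 against 11.09, 10.58 and 11.25 in WT. Klf7, a Krüppel-like factor, lay at 0.14. In all of these, as in Stat4, WT replicate 2 was the lowest array and K313 replicate 1 the highest. Their differences were 1.07 ± 0.24, 0.98 ± 0.21 and 1.02 ± 0.27 (SE). The choice by likeness to Stat4 fixed both size and direction. It also favoured the same order of arrays and the same losses of a call, so these are no separate result. Like that of Stat4, the calls of Nqo2 (adjusted p = 0.0168) and Mtus1 (0.0138) were lost without K313 replicate 1 (0.0698 and 0.0636) or K313 replicate 3 (0.0616 and 0.0539). That of Klf7 (0.0447) was lost in 5 of the 6 fits that leave out 1 array and held without WT replicate 3.

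The genes next to Stat4 on chromosome 1 were looked at after their values were seen. Of the 3 nearest measured genes on each side, 1 rose, 1 fell and 4 did not pass. Nabp1, a single-stranded DNA binding protein and the nearest measured gene on one side, read 10.44, 10.39 and 10.44 in K313 against 11.80, 11.40 and 11.73 in WT, a difference of -1.22 ± 0.16 (limma adjusted p = 0.000548). Mfsd6, a transporter family member 3 genes away on the other side, read 8.76, 7.90 and 8.27 in K313 and 3.44, 3.67 and 4.45 in WT (4.46 ± 0.28). Nab1, the nearest measured gene on that side, differed by 0.21 ± 0.19 (adjusted p = 0.674) and Nemp2 by 0.37 ± 0.16 (0.243). The called neighbours of Stat4 thus went in both directions.

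Around the other 7 members 1 neighbour passed, Tac2. Stat3, Stat5a and Stat5b lie side by side on chromosome 11, and none of these 3 genes nor of their measured neighbours was called by limma, with differences between -0.18 and 0.34. Of the 6 genes nearest to each of Stat2, Jak2 and Tyk2, 0 were called, with Plgrkt, a plasminogen receptor 3 genes from Jak2, the most different at -0.56 ± 0.18 (adjusted p = 0.0925). This neurokinin precursor near Stat6 rose by 1.02 ± 0.20 at levels near the low end in both groups (4.18 in K313 and 3.15 in WT).

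Among the kinases, Jak2 read 10.53, 10.07 and 10.12 in the K313 arrays, against 10.61, 11.00 and 11.03 in the WT arrays. The groups did not overlap, although K313 replicate 1 and WT replicate 1 were only narrowly apart. Means were 10.24 ± 0.25 in K313 and 10.88 ± 0.23 in WT (SD, n = 3 each). The difference of -0.64 ± 0.19 (SE; 95% interval -1.05 to -0.23 before adjustment) had a limma adjusted p of 0.0678. It passed in 4 of 14 alternatives, without K313 replicate 1 (-0.79, adjusted p = 0.0443), without WT replicate 1 (-0.78, 0.0432), with a common median (-0.72, 0.0448) and with array weights (-0.67, 0.0481). Over all 14 the adjusted p ranged between 0.0432 and 0.269, with a negative difference in each.

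**Figure D3:**
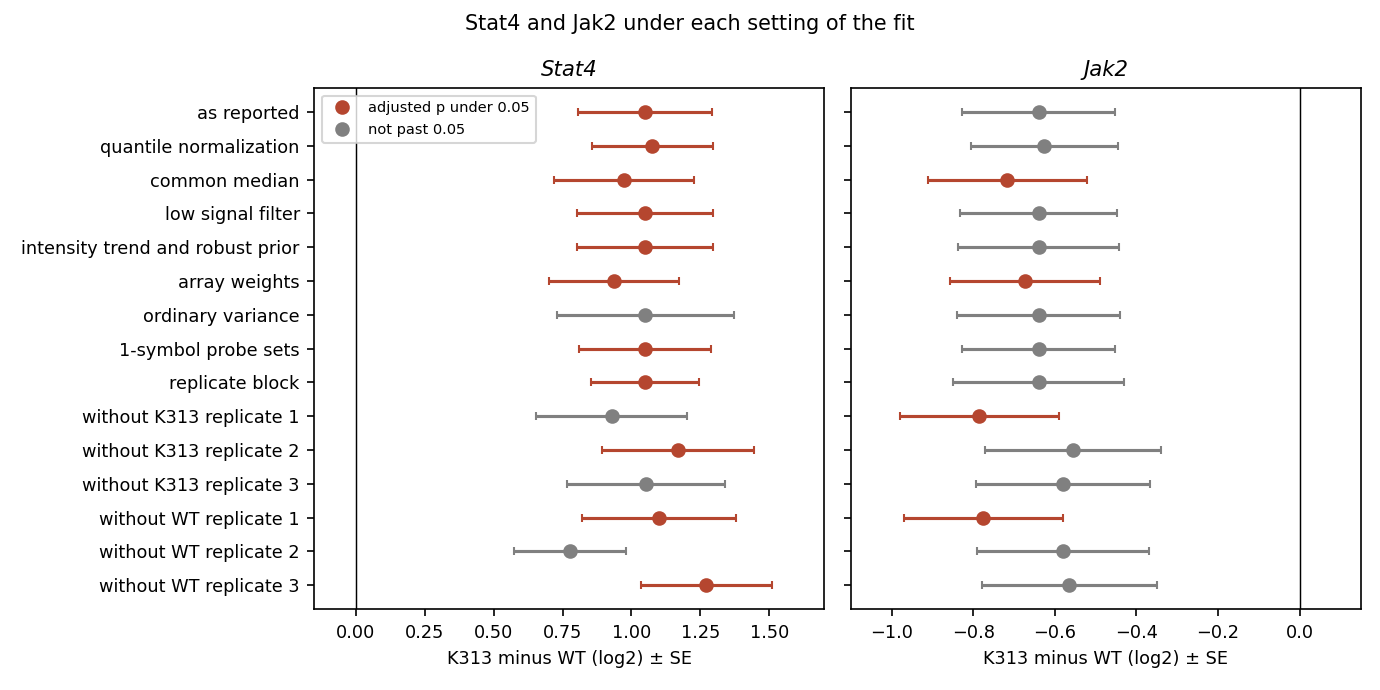
Difference K313 minus WT (log2 ± SE, horizontal axis) of Stat4 and Jak2 as reported and under each alternative setting. Stat4 runs between 0.78 and 1.27 and Jak2 between -0.79 and -0.56, and red points mark an adjusted p under 0.05.

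Tyk2, the kinase of interferon and interleukin 12 receptors, read 11.27, 10.95 and 11.30 in K313 and 11.16, 11.13 and 11.21 in WT. Its difference was 0.01 ± 0.16 (SE; 95% interval -0.34 to 0.36), the smallest of the 8 members. Jak1, which pairs with Tyk2 or Jak2 on many receptors and was not among the 9 genes, read 10.69, 10.50 and 10.48 in K313 against 10.74, 10.81 and 11.01 in WT (-0.30 ± 0.16, limma adjusted p = 0.375). Its groups did not overlap, as in 21.9% of all probe sets.

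Stat2, which acts with Irf9 in the interferon response, read 8.26, 7.89 and 8.02 in K313 and 7.98, 8.90 and 8.60 in WT. WT replicate 1 fell among the K313 arrays, and the difference was -0.44 ± 0.23 (SE; limma adjusted p = 0.368). Without that array it was -0.69 (adjusted p = 0.0677). Irf9, its DNA-binding partner, differed in the opposite direction: 6.58, 6.48 and 6.77 in K313 against 6.08, 5.97 and 6.27 in WT, with no overlap (0.50 ± 0.16, adjusted p = 0.0988). Neither passed.

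Stat3, the effector of the interleukin 6 family and of G-CSF, read 12.47, 11.90 and 12.31 in K313 and 11.34, 12.44 and 12.62 in WT. The WT group held both the lowest and the highest array, with an SD of 0.69 against 0.29 in K313. Its difference of 0.09 ± 0.30 (SE; limma adjusted p = 0.930) turned to -0.30 without WT replicate 1, and its 95% interval, -0.57 to 0.76, is the widest among the members. Of the members, Stat3 was thus the least precisely measured.

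Stat5a and Stat5b, close paralogs that act below GM-CSF, interleukin 3 and erythropoietin receptors, had overlapping groups. Stat5a read 11.02, 10.94 and 11.02 in K313 and 10.98, 11.08 and 11.42 in WT. Stat5b read 10.07, 10.02 and 10.00 in K313 and 9.93, 10.22 and 10.49 in WT. In both the K313 arrays were tightly grouped (SD 0.05 and 0.04), the WT arrays were spread more widely (SD 0.23 and 0.28), and WT replicate 3 was the highest. The differences were -0.17 ± 0.17 for Stat5a and -0.18 ± 0.17 for Stat5b (SE; limma adjusted p = 0.702 and 0.683). As the genes are near-identical in places, whether their probes are fully separate is not stated in the sources used here. Stat6 read 11.64, 11.37 and 11.61 in K313 and 11.20, 11.52 and 11.44 in WT, a difference of 0.15 ± 0.16 (adjusted p = 0.725).

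Most members shared their lowest and highest arrays within each group. K313 replicate 2 was the lowest K313 array in 7 of 8 members, Stat5b being the exception, against 33.8% of the 7454 probe sets at least as bright as the dimmest member. WT replicate 1 was the lowest WT array in 6 of 8 (29.9% of the bright probe sets), the exceptions being Stat4 and Tyk2. WT replicate 3 was the highest in 6 of 8 (38.9%), the exceptions being Stat2 and Stat6. The SD was larger in WT than in K313 in 6 of 8 members and in 61.1% of the bright probe sets. These counts are a description, since the members share their arrays.

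Further genes of the pathway were taken from lists arranged by role, with 152 measured genes on the pathway and target lists, 13 of them on more than 1 list. Together 15 were higher and 26 lower, 27%, against 7.75% of all probe sets, with a median difference of -0.012. Of these 41 calls, 30 held in each of the 6 fits that leave out 1 array, and 10 held with the ordinary variance of each gene. The lists were drawn up with results of these data known, so the share is a description. Single genes described as near the low end without a call, and Il12a, are named after their values were seen.

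**Figure D4:**
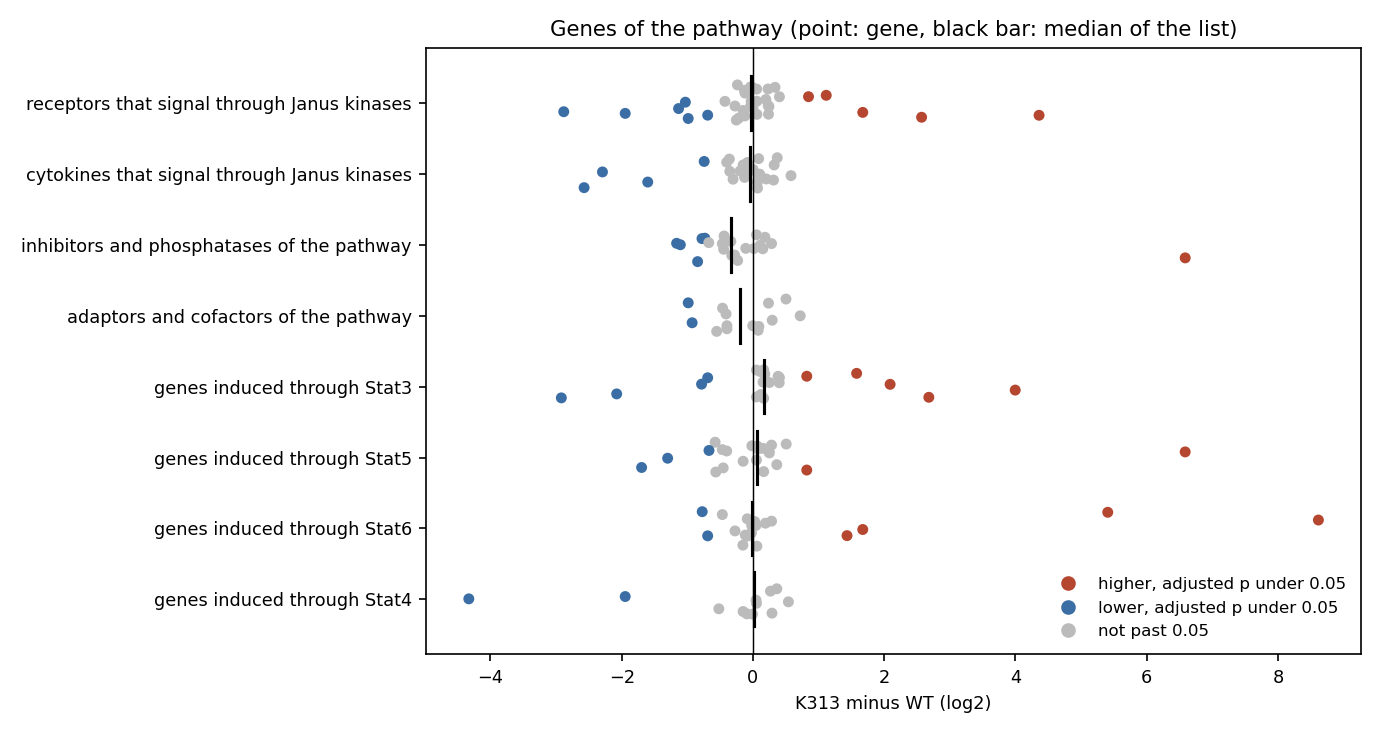
Difference K313 minus WT (log2, horizontal axis) of each measured gene in the pathway and target lists, 1 point per gene with its list's median as a black bar. Called genes lie on both sides in most lists, and the cytokine, adaptor and Stat4 target lists have called genes on the lower side alone.

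Of 35 measured receptors that signal through Janus kinases, 5 rose, 6 fell and 24 did not pass (median difference -0.03), and 14 were near the low end in both groups. Il6st, which encodes gp130, the shared signalling chain of the interleukin 6 family, read 10.81, 10.46 and 10.17 in K313 against 5.83, 5.20 and 7.33 in WT. All K313 arrays were far above the WT arrays, of which WT replicate 3 was the highest (4.36 ± 0.42, limma adjusted p = 5.11e-05, and 4.97 without WT replicate 3). Il27ra, the partner of gp130 in the interleukin 27 receptor, read 5.62, 5.71 and 5.41 in K313 and 3.93, 3.82 and 3.97 in WT, a rise of 1.67 ± 0.16 out of the low end. Il6ra, the interleukin 6 binding chain, rose by 2.57 ± 0.21. Both chains of the interleukin 6 receptor were thus higher, while Stat3, the STAT below it, did not pass the test. Lifr (0.06 ± 0.27, limma adjusted p = 0.953) and Osmr (0.24 ± 0.15, 0.475), other partners of gp130, were near the low end in both groups.

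Il5ra, the interleukin 5 binding chain, fell by 2.88 ± 0.21 on the log2 scale. The other receptors are named after their values were seen. Csf2rb, the common β chain of the GM-CSF, interleukin 3 and interleukin 5 receptors, read 11.67, 11.43 and 11.25 in K313 and 13.07, 12.30 and 11.94 in WT (-0.99 ± 0.26, limma adjusted p = 0.0412). That call was lost in 5 of the 6 fits that leave out 1 array and held without WT replicate 3. Of the chains that act with Csf2rb, Il3ra (-0.03 ± 0.30, adjusted p = 0.981) and Csf2ra (-0.13 ± 0.35, 0.912) did not pass, nor did Epor, the erythropoietin receptor (-0.43 ± 0.19, 0.255). Csf3r, the G-CSF receptor, read 9.84, 9.50 and 9.67 in K313 and 10.29, 11.14 and 10.67 in WT (-1.03 ± 0.22, adjusted p = 0.0120, and 0.0613 without K313 replicate 2). Crlf2, the TSLP receptor, fell by 1.13 ± 0.15, and Il4ra, the receptor chain upstream of Stat6, fell by 0.69 ± 0.15 (adjusted p = 0.0153, between 0.0517 and 0.0666 without K313 replicate 1, K313 replicate 2 or WT replicate 3). Il15ra rose by 1.12 ± 0.16 and Ifngr1, the interferon gamma receptor, by 0.85 ± 0.19 (adjusted p = 0.0182, between 0.0604 and 0.0835 without K313 replicate 1, K313 replicate 3 or WT replicate 2).

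Stat4 itself sits below the interleukin 12 receptor, whose chains did not rise with it. Il12rb2, the chain that docks Stat4, read 7.77, 7.61 and 7.28 in K313 against 9.26, 9.97 and 9.27 in WT. It was lower in every K313 array (-1.95 ± 0.22, limma adjusted p = 0.000160), the opposite direction to Stat4. Il12rb1, the chain that binds Tyk2, was near the low end in both groups, at 4.31 to 4.71 in K313 and 4.31 to 4.70 in WT, and Il23r read 4.58 to 4.73 in K313 and 3.90 to 4.67 in WT.

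Of 12 measured genes induced through Stat4 in lymphocytes, 2 fell and 0 rose with limma (2 higher and 3 lower at an unadjusted p under 0.05), and 7 were near the low end in both groups. The falls were Il12rb2 and Gzmb, the cytotoxic protease granzyme B, which read 4.72, 4.44 and 5.22 in K313 and 10.04, 9.18 and 8.15 in WT (-4.33 ± 0.39). Ifng, the classical target, stayed near the low end, at 3.97 to 4.32 in K313 and 4.05 to 4.67 in WT. Il18rap differed by -0.52 ± 0.19 (adjusted p = 0.159) and Ets1 by 0.54 ± 0.16 (0.0698). The T cell genes Cd3d, Cd3e and Bcl11b lay at 3.31 to 4.04 in K313 and 3.09 to 4.42 in WT. Cd3g, another T cell gene named after its values were seen, was lower in K313, at 3.06 to 3.54 against 4.22 to 5.20 in WT (-1.49 ± 0.24, adjusted p = 0.00230), and near the low end in both groups. The part of T cells in the level of Stat4 was not tested.

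Of 25 cytokines that use these receptors, 4 fell and 0 rose with limma (1 higher and 4 lower at an unadjusted p under 0.05), and 17 were near the low end in both groups. Il6 read 11.17, 10.68 and 10.91 in K313 against 13.21, 13.25 and 13.18 in WT (-2.29 ± 0.17, limma adjusted p = 6.48e-06). The interleukin 6 transcript was thus lower where its receptor chains were higher. Ebi3, a subunit of interleukin 27, read 10.23, 9.29 and 10.18 in K313 and 12.38, 12.70 and 12.34 in WT (-2.57 ± 0.24), opposite in direction to the receptor chain Il27ra. Il27, which encodes the other subunit, did not pass (0.37 ± 0.18, limma adjusted p = 0.326). It was near the low end in both groups (4.30 in K313 and 3.93 in WT). Il4 fell by 1.60 ± 0.26 to a level near the low end in K313 (4.95), and Il15 fell by 0.74 ± 0.18 (adjusted p = 0.0262, between 0.0630 and 0.107 without K313 replicate 2, K313 replicate 3, WT replicate 1 or WT replicate 3). Il12a differed by -0.13 ± 0.17.

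Among inhibitors and phosphatases of the pathway more genes fell than rose. Of 22, 6 fell, 1 rose and 15 did not pass, with a median difference of -0.33 against 0.02 over all probe sets. Socs2, a feedback inhibitor that Stat5 induces, was the rise (6.59 ± 0.54, with 7.40 without WT replicate 3 and 5.96 without WT replicate 1). Pias4, a SUMO ligase that restrains STATs, read 8.16, 7.76 and 8.23 in K313 and 9.24, 8.71 and 9.52 in WT (-1.11 ± 0.22, limma adjusted p = 0.00930, and 0.0507 without K313 replicate 2). Its relative Pias3, named for its inhibition of Stat3, fell by 0.73 ± 0.15. Dusp3, a phosphatase that acts on Stat5, fell by 1.16 ± 0.21 and Usp18, which blocks Jak1 at the interferon receptor, fell by 0.74 ± 0.15 to the low end in K313 (4.55). Ptpn6, the phosphatase SHP-1, fell by 0.78 ± 0.18 and the ubiquitin ligase Cblb fell by 0.84 ± 0.21 (limma adjusted p = 0.0239 and 0.0281). In the 6 fits that leave out 1 array the call of Ptpn6 was lost in 5, all but the one without WT replicate 2. That of Cblb was lost in 4 and held without K313 replicate 1 or WT replicate 3. Pias3, Ptpn6 and Cblb are named after their values were seen. Cish, Socs1 and Socs3, the other inducible inhibitors, were near the low end in all arrays, between 2.91 and 3.71 in K313 and between 2.77 and 4.28 in WT.

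Of 14 adaptors and cofactors, 2 fell and 0 rose with limma (2 higher and 4 lower at an unadjusted p under 0.05). Grb2, which links receptors to Ras, read 13.35, 13.13 and 13.01 in K313 and 14.06, 13.93 and 14.28 in WT (-0.93 ± 0.17). Gab2, the docking protein below the GM-CSF and interleukin 3 receptors, fell by 0.99 ± 0.19. Stam, a sorting adaptor that binds Jak2 and Jak3, read 9.77, 9.88 and 9.28 in K313 and 10.23, 10.15 and 10.21 in WT, short of the threshold (-0.55 ± 0.18, adjusted p = 0.110).

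Most target lists held called genes in both directions. Of 21 genes induced through Stat3, 5 rose and 4 fell (median difference 0.16): Lcn2 rose by 2.09 ± 0.23 and the interleukin 1 antagonist Il1rn by 1.58 ± 0.21 out of the low end (3.58 in WT), while Fgl2 fell by 2.92 ± 0.22 and Cxcr2 fell by 2.08 ± 0.15. Without WT replicate 3, 2 of the falls were left. Of 22 genes induced through Stat5, 2 rose and 3 fell (median 0.06). Besides Socs2, the survival kinase Pim1 rose, with 14.17, 14.24 and 14.10 in K313 against 13.20, 13.28 and 13.57 in WT (0.82 ± 0.16). Its relative Pim2 went the other way, with means of 7.47 ± 0.52 in K313 and 9.16 ± 0.25 in WT (SD, n = 3 each), no overlap and a difference of -1.70 ± 0.25 (SE). The cell cycle inhibitor Cdkn1a fell by 1.30 ± 0.21. Bcl2l1, a survival gene that Stat5 induces and named after its values were seen, differed by -0.45 ± 0.22 (limma adjusted p = 0.321).

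Of 19 genes induced through Stat6 in macrophages, 4 rose and 2 fell (median -0.02), and 11 were near the low end. The rises were the chitinase-like genes Chil3 (8.62 ± 1.14) and Chil4 (5.41 ± 0.50), the lipoxygenase Alox15 (1.67 ± 0.28) and E-cadherin, Cdh1 (1.43 ± 0.26). Chil3 read 12.83, 14.00 and 14.64 in K313 against 3.58, 3.26 and 8.78 in WT, so its size rests on WT arrays of which only replicate 3 was above the low end. Chil4 and Cdh1 were likewise near the low end in WT (4.58 and 3.95), where an array value gives no firm level, and these sizes are differences of array values. Without WT replicate 3 the difference was 10.40 for Chil3 and 6.02 for Chil4, and neither fall on the list passed. For Chil3 it was 7.80 without WT replicate 1 and 7.64 without WT replicate 2, and a robust prior with an intensity trend gave an adjusted p of 0.0777. Arg1, Retnla and Mrc1, the usual marks of Stat6 in macrophages, were near the low end, between 2.73 and 4.43 in K313 and between 2.82 and 5.15 in WT.

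Markers of several cell types moved between the groups beside these genes. Neutrophil precursor markers had 6 of 12 higher and 1 lower, a median difference of 0.61 and a mean level per array of 13.36 to 13.64 in K313 and 12.00 to 12.39 in WT. The fall was that of Csf3r, named after its values were seen. Without WT replicate 3 the calls on this list were 4 higher and 1 lower. Of those with the highest levels, Ctsg (1.75) and Prtn3 (0.94) rose, while Mpo (0.00) and Cd63 (-0.32) did not pass. Mpo read 18.36 to 18.51, close to the array maxima of 18.42 to 18.59. Whether a difference could show at that level was not tested. The largest differences on that list, named after their values were seen, were those of Mgst1 (7.63 ± 0.75) and Elane (3.29 ± 0.28). Mgst1 read 5.52, 6.26 and 9.46 in the WT arrays. Its difference was 8.82 without WT replicate 3 and 6.85 without WT replicate 1. Basophil and mast cell markers had 1 of 12 higher and 7 lower, at 9.23 to 9.48 in K313 and 9.95 to 10.41 in WT. Hdc, Mcpt8 and Gata2 were among the falls, and Cpa3 did not pass. The rise was that of Prss34, named after its values were seen (3.98 ± 0.21, limma adjusted p = 1.16e-06). The call of Hdc (adjusted p = 0.0206) was lost without K313 replicate 2, K313 replicate 3, WT replicate 1 or WT replicate 3 (0.0532 to 0.0984). Eosinophil markers had 4 of 7 lower (Prg2, Siglecf, Prg3 and Il5ra), at 8.34 to 8.71 in K313 and 9.30 to 9.73 in WT. The call of Prg3 (limma adjusted p = 0.0216) was lost without K313 replicate 2, K313 replicate 3 or WT replicate 2 (0.0550 to 0.103). That of Siglecf (0.00968) was lost without K313 replicate 2 (0.0538). Monocyte and macrophage markers had 3 of 10 higher (F13a1, Ccr2 and Cd14) and 2 lower, at 7.003 to 7.107 in K313 and 6.28 to 6.65 in WT. Without WT replicate 3 their calls were 2 higher and 1 lower. The falls were Adgre1 and, named after its values were seen, Cx3cr1 (-2.04). The call of Ccr2 (limma adjusted p = 0.0438) was lost in each of the 6 fits that leave out 1 array (0.0583 to 0.145). That of Adgre1 (0.0270) was lost without K313 replicate 2, K313 replicate 3, WT replicate 2 or WT replicate 3 (0.0698 to 0.116). Dendritic cell markers had 1 of 11 lower, at 4.47 to 4.63 in K313 and 4.58 to 4.61 in WT, and Ccr7, Siglech, H2-Ab1 and Flt3 did not pass. Erythroid and megakaryocyte markers had 3 of 8 lower (Gata1, Gp9 and Itga2b), at 5.60 to 5.93 in K313 and 6.67 to 6.85 in WT, and Car1 did not pass. The call of Itga2b (limma adjusted p = 0.0114) was lost without K313 replicate 1 (0.0549) or K313 replicate 3 (0.0553). B and T lymphocyte markers had 3 of 11 lower (Cd79b, Cd79a and Cd3g), at 4.15 to 4.34 in K313 and 4.81 to 4.94 in WT, and Ebf1 and Il7r did not pass. Fewer cells of a type and less RNA per cell cannot be told apart in these samples, and the part of cell composition in the levels of Stat4, Jak2 and the receptors was not tested.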

How the data were processed

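Total RNA of 6 samples was hybridised to Affymetrix Mouse Clariom S arrays. The authors deposited log2 expression values per probe set, made with RMA and the Transcriptome Analysis Console per the submitters' processing notes; no versions are given in the sources used here. The table held 22206 probe sets and 0 columns of other samples. The platform annotation gives 1 gene symbol to 19572 probe sets and none to 2634. The test was limma 3.58.1 (R 4.3.3) with lmFit and eBayes, the group as the only term, two-sided, over all 22206 probe sets. P-values were adjusted by the Benjamini-Hochberg method and called at 0.05. The script was tested on simulated data. Adjusted p-values come from this fit unless another setting or a left-out array is named beside them. The genes described and the gene lists were chosen with earlier results of these data known, so they are not independent of them. From each pathway or target list up to 4 genes with the smallest p were named, and from each cell marker list up to 4 with the highest level; genes named outside that rule are marked. One target list is not reported here. The promoter patterns and the rule on neighbouring genes were also set after values were seen. The alternatives were 3 kinds of scaling or filtering, 3 treatments of the variance, probe sets with 1 symbol, a replicate block and each array left out. Promoter sequences come from RefSeq, build GRCm38.p6, matched by symbol; 8 of 8 measured genes matched. Arrays carry no read depth, so their number, 3 per group, limits the precision.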

Additional observations from a re-analysis of the deposited data

How the results depend on the processing

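The number of probe sets past the threshold was 1720, and 496 with the ordinary variance of each probe set. It lay between 1228 and 1465 when 1 array was left out. Of the 8 STAT and JAK genes, 1 passed as reported, 2 with a common median, 2 with array weights and 0 with ordinary variance. With 1 array left out the number lay between 0 and 2. Stat4 and Jak2 account for all of these calls, and their values stand in the report. The difference of Stat3, 0.09, was -0.015 with array weights and lay between -0.30 and 0.34 with 1 array left out, below 0 without K313 replicate 1 or WT replicate 1. That of Tyk2, 0.01, was -0.07 with a common median and -0.034 with array weights, and lay between -0.057 and 0.12 with 1 array left out, below 0 without K313 replicate 1, K313 replicate 3 or WT replicate 2. The cause was not tested. The other 6 genes kept their direction in all 14 alternatives. Of the 41 called pathway and target genes, 10 passed with ordinary variance, 39 with the replicate block and 30 in each fit that left out 1 array. Without WT replicate 3, an alternative added after the data were seen, the called monocyte and macrophage markers numbered 3 in place of 5. The called neutrophil precursor markers then numbered 5 in place of 7. With the replicate number as a replicate block, 1546 probe sets passed (777 higher and 769 lower) and 1 STAT or JAK gene. With that block the limma adjusted p was 0.0105 for Stat4 and 0.131 for Jak2. Same-numbered arrays did not deviate together (correlations -0.0617 to 0.0291), and 0 of 6 arrays correlated best with their own number. With 3 arrays per group, deviations from the group means cannot exclude a weak pairing, which the labels do not state. Arrays with 3 per group limit what can be seen: the median SE of a difference was 0.18.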
